A study of Homo sapiens with 18 samples.

Results

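The mitochondrial genome rows are the 37 rows of the deposited gene count table whose gene name starts with MT-, out of 57773 rows in all. They comprise 13 protein genes, 22 tRNA genes and 2 rRNA genes, and all 37 were matched by gene identifier to the mitochondrial chromosome of the GENCODE annotation on GRCh37. By the strand of the annotation 28 rows were heavy-strand genes (12 protein, 2 rRNA and 14 tRNA genes) and 9 were light-strand genes (MT-ND6 and 8 tRNA genes). The rows were read across RWPE1, a benign cell line from human prostate epithelium, that stably carried 1 of 3 MACC constructs. A MACC construct is a fusion of the DNA-binding domain of the androgen receptor with ERT2, a hormone-binding domain that moves the protein to the nucleus upon tamoxifen. The neutral form had only a 3X FLAG tag, while KRAB was added in the repressive form and VP64 in the activating form. All lines were kept under blasticidin selection, and each was treated with ethanol vehicle or tamoxifen for 48 hours. For tamoxifen the labels name 1.5 uM in one field and 1.25 uM in another. With 3 biological replicates in each of the 6 groups there were 18 libraries, and every comparison of a construct rests on 1 line per construct, so that the construct and the line cannot be told apart.

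The human mitochondrial genome is a small circle that encodes subunits of the respiratory chain together with the rRNAs and tRNAs needed to translate them. Both strands are transcribed into long polycistronic RNAs that are cut at the tRNAs, and most mature mRNAs, rRNAs and tRNAs come from the heavy-strand transcript. MT-ND6 is the sole protein gene of the light strand, and the rest of the light-strand transcript is mostly noncoding and is rapidly degraded in human cells. Prostate epithelium is known for its unusual use of mitochondria, since luminal cells secrete citrate in place of oxidising it.

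Total counts per library lay between 675609 and 792282, so a row at 0 counts in a library could still have a level of up to 3.79 to 4.44 CPM (counts scaled by the library total) with a floor of 3 counts. Intervals and floors of this kind cover counting error only. The basal keratins KRT5, KRT14 and KRT17 and the luminal keratin KRT8 had between 435 and 1199 counts in every library. Other epithelial markers were low, with 14 to 36 counts of KRT18, 4 to 25 of TP63, 2 to 15 of CDH1 and 0 to 8 of EPCAM, which had a count in 12 of 18 libraries. The leukocyte, endothelial and fibroblast markers PTPRC, PECAM1, COL3A1 and DCN were at 0 in all 18 libraries, and COL1A1 had at most 13 counts. The libraries were made with a stranded mRNA kit, but the strand setting used in quantification is not given in the sources used here. The GAPDH row held 439 ± 61.2 CPM (SD, n = 18), whereas the row of a lncRNA on the opposite strand of GAPDH (ENSG00000269968) held 36431 ± 2072 CPM. Because of this it cannot be told apart whether a row holds reads of its own gene or of RNA from the other strand. This holds for the mitochondrial rows and for the marker rows above. A low or 0 count of a marker need not mean that its RNA was low or absent. Heavy and light below describe the annotated gene of a row and not the origin of its reads.

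Short stretches of the reference mitochondrial chromosome are shown for rows whose counts are described below. The first is the boundary where the MT-ND5 and MT-ND6 rows meet without a gap, at chrM:14134-14163 on the plus strand, with the bases of the MT-ND6 row in capitals. The others are light-strand tRNA rows in the orientation of the tRNA, namely the pair with the most tRNA counts, MT-TA (chrM:5587-5655, minus strand) and MT-TN (chrM:5657-5729, minus strand), and MT-TE (chrM:14674-14742, minus strand), which adjoins MT-ND6 and had no count.
MT-ND5/MT-ND6 boundary: ctcctaatcacataaCCTATTCCCCCGAGC
MT-TA: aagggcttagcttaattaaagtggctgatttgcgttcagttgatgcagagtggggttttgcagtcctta
MT-TN: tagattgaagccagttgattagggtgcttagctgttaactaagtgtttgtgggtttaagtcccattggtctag
MT-TE: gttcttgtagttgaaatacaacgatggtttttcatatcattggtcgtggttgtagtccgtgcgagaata

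Mitochondrial counts were concentrated in a single light-strand row. The 9 light-strand rows held 76.1% of the 100554 counts of the 37 rows although they made up 6.99% of the annotated length, and the 28 heavy-strand rows held the other 23.9%. MT-ND6, a core subunit of complex I (NADH dehydrogenase), accounted for 99.6% of the light-strand counts. It was the row with the most counts among the 37 in 18 of 18 libraries and ranked 20th among all genes of the table by counts, whereas MT-ND5 ranked 180th.

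MT-ND6 (ENSG00000198695, chrM:14149-14673, minus strand) had a mean level of 10789 CPM per kilobase over the 18 libraries. MT-ND5 (ENSG00000198786, chrM:12337-14148, plus strand), also a core subunit of complex I, was the highest heavy-strand row and had 434 CPM per kilobase, so that the level per length of MT-ND6 was 24.9-fold that of the row it adjoins. Against the other heavy-strand protein rows the ratio per kilobase rose to 370-fold for MT-ND1. On the other side MT-ND6 adjoins the tRNA row MT-TE, which had 0 counts in all 18 libraries.

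**Figure D1:**
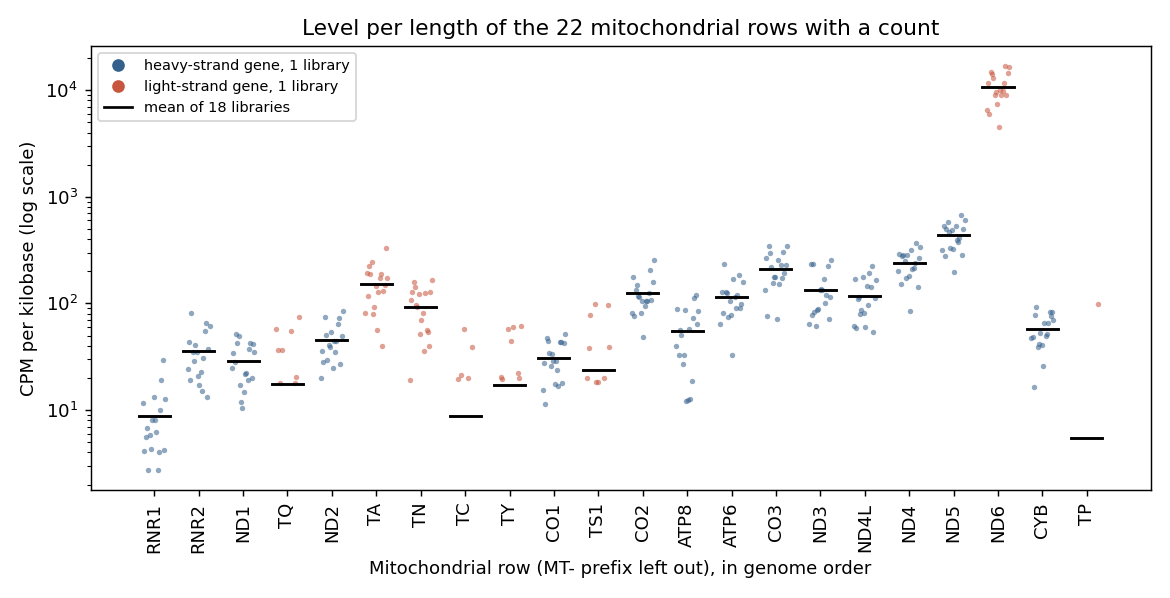
Level of each mitochondrial row with at least 1 count, in CPM per kilobase of gene length on a log axis, with the rows in genome order. Each point is 1 library (libraries at 0 are not drawn), bars are means of 18 libraries including zeros, and colours give the annotated strand. MT-ND6 lies at 10789 and the next row, MT-ND5, at 434.

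The 12 heavy-strand protein rows all reached 10 counts in at least 3 libraries and were unevenly filled. Of the complex I rows, MT-ND5 was followed per kilobase by MT-ND4 (238 CPM), MT-ND3 (133 CPM), MT-ND4L (118 CPM), MT-ND2 (45.5 CPM) and MT-ND1 (29.2 CPM). Of the complex IV (cytochrome c oxidase) rows, MT-CO3 had 211 CPM per kilobase, MT-CO2 125 and the catalytic subunit MT-CO1 30.8. The ATP synthase rows MT-ATP6 and MT-ATP8 had 116 and 54.6 CPM per kilobase, and MT-CYB, cytochrome b of complex III, had 57.0. Neighbouring values in this order, such as MT-ND4L and MT-ATP6, lay closer than the spread between libraries. MT-ND5 was the highest heavy-strand protein row by counts in 18 of 18 libraries and took 40.5% to 49.5% of the counts of these 12 rows, while MT-ND4 took 15.5% to 22.5%. MT-ND5 and MT-ND4 together held 62.3% of all heavy-strand counts.

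The rRNA rows, which encode the RNAs of the mitochondrial ribosome, were low. The large-subunit row MT-RNR2 had 35.9 CPM per kilobase and the small-subunit row MT-RNR1 8.82 CPM per kilobase. The libraries were made by selecting mRNA, and whether this lowered the rRNA rows was not tested. MT-RNR2 ranged from 13.95 to 97.9 counts per library with a median of 39.3, and MT-RNR1 from 2 to 19 counts.

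The tRNA rows differed by strand. All 14 heavy-strand tRNA rows, 59 to 75 bases long, had 0 counts in all 18 libraries, whereas 7 of the 8 light-strand tRNA rows, 66 to 73 bases long, had counts, 300.0 in all. MT-TA, the alanine tRNA, held 141 of these counts and was present in 18 of 18 libraries. MT-TA had 4, 10 and 6 counts with vehicle and 12, 10 and 12 with tamoxifen in the neutral line. In the repressive line it had 4, 5 and 8 counts with vehicle and 3, 6 and 9 with tamoxifen, and in the activating line 10, 2 and 7 with vehicle and 7, 17 and 9 with tamoxifen. The ranges of vehicle and tamoxifen touched or overlapped in each line at these counts. MT-TN, the asparagine tRNA, had 92 counts in 18 libraries. MT-TS1 had 22 counts, MT-TQ 17, MT-TY 15 and MT-TC 8, and the 5 counts of MT-TP came from 1 library, activating tamoxifen replicate 3. Mature tRNAs carry no poly(A) tail and are shorter than most library fragments, so counts at these rows need not be mature tRNA.

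Among the 13 heavy-strand protein and rRNA rows that lie on the MT-ND5 side of MT-ND6, the level per kilobase was lower the farther the row was from MT-ND6. Spearman's rho between level and distance over these 13 rows was -0.91, and within single libraries it lay between -0.95 and -0.76 and was negative in 18 of 18. This is a description across genes of the same libraries, which share depth and library preparation and are not independent replicates. MT-CYB, on the other side of MT-ND6, was not part of this relation. It starts at chrM:14747, near the end of MT-ND6 at chrM:14673, yet had 57.0 CPM per kilobase against 434 for MT-ND5.

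**Figure D2:**
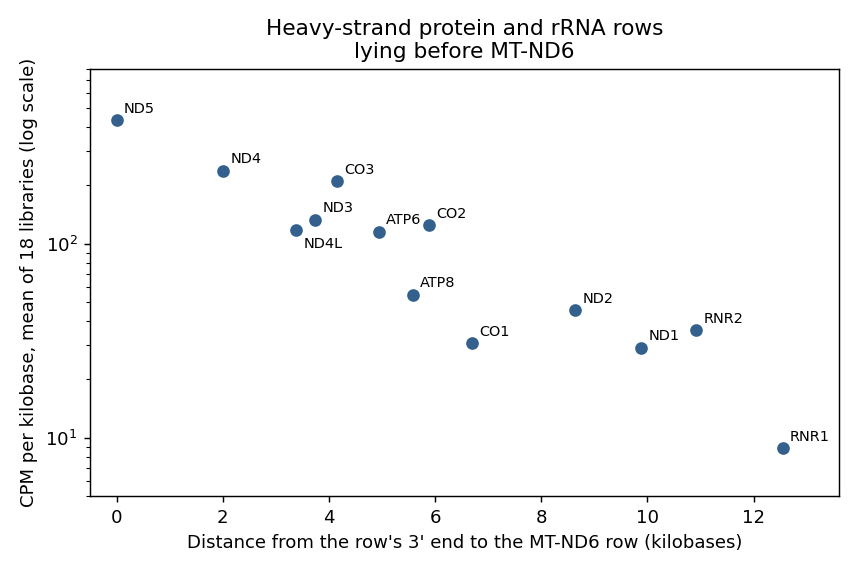
Mean level (CPM per kilobase, log axis, 18 libraries) of the 13 heavy-strand protein and rRNA rows that lie before MT-ND6, against the distance in kilobases from the 3' end of the row to the MT-ND6 row. MT-ND5, at the boundary, is at 434 and MT-RNR1, the farthest row, at 8.82.

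Some counts were shared between rows. Values that were not whole numbers, which salmon gives when it splits reads between transcripts, occurred in 7 of the 37 rows. MT-ATP6 and MT-ATP8 overlap by 46 bases and MT-ND4L and MT-ND4 by 7 bases on the same strand, so counts in these stretches are uncertain. However, MT-ATP8 and MT-ND4L had only whole values, while MT-ATP6 was not whole in 17 libraries and MT-ND4 in 8. Which rows shared the split reads was not tested. Nuclear copies of mitochondrial genes were listed in 175 rows, of which 10 had counts, 253 in all or 0.252% of the counts of the mitochondrial rows. The copy of MT-ATP6 on chromosome 1 (MTATP6P1, chr1:569076-569756, 98.5% identical to the mitochondrial sequence) held 140 of them, and the MT-ND6 copy MTND6P4, 95.02% identical, held 16.1.

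The mitochondrial percent of a library, that is the share of its total counts in the 37 rows, was 0.748% ± 0.244 (SD, n = 18). The limit on strand applies here too, so this percent is a share of assigned counts and need not be the share of mitochondrial RNA. In bulk RNA fewer cells of a type and less mitochondrial RNA per cell cannot be told apart. In the neutral line the percent was 0.473%, 0.838% and 0.421% with vehicle and 1.02%, 0.973% and 0.870% with tamoxifen. All 3 tamoxifen libraries were higher than all 3 vehicle libraries, with means of 0.577% ± 0.227 and 0.955% ± 0.0776 (SD, n = 3). The exact permutation test gave p = 0.1, the smallest that 3 against 3 allows, and 0.262 after Benjamini-Hochberg adjustment over the 21 tests of the 3 share measures.

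The other lines showed no such separation. In the repressive line the mitochondrial percent was 0.606%, 0.693% and 0.533% with vehicle and 0.315%, 0.735% and 0.630% with tamoxifen, and the vehicle values lay inside the tamoxifen range (exact permutation p = 0.9, n = 3 per group). In the activating line it was 0.674%, 0.792% and 1.16% with vehicle and 0.601%, 0.973% and 1.14% with tamoxifen, and the ranges again overlapped (exact permutation p = 1, n = 3 per group). The 95% Wilson interval of a single library was narrow, from 0.303% to 0.328% for the lowest library and from 1.14% to 1.19% for the highest, so that replicates of one group differed by more than counting error. Over the 3 lines tamoxifen libraries were 0.118 percentage points higher than vehicle libraries (exact permutation test stratified by line, p = 0.258, n = 9 per treatment). Libraries of the activating line were 0.306 percentage points above those of the repressive line (exact permutation test stratified by treatment, p = 0.04, adjusted p = 0.262, n = 6 per line). Leaving out 1 library moved the unadjusted p of this difference above 0.05 for 7 of the 12 libraries (repressive vehicle 1 and 3, repressive tamoxifen 1 and 3, activating vehicle 3, activating tamoxifen 2 and 3), with differences of 0.234 to 0.323 points.

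**Figure D3:**
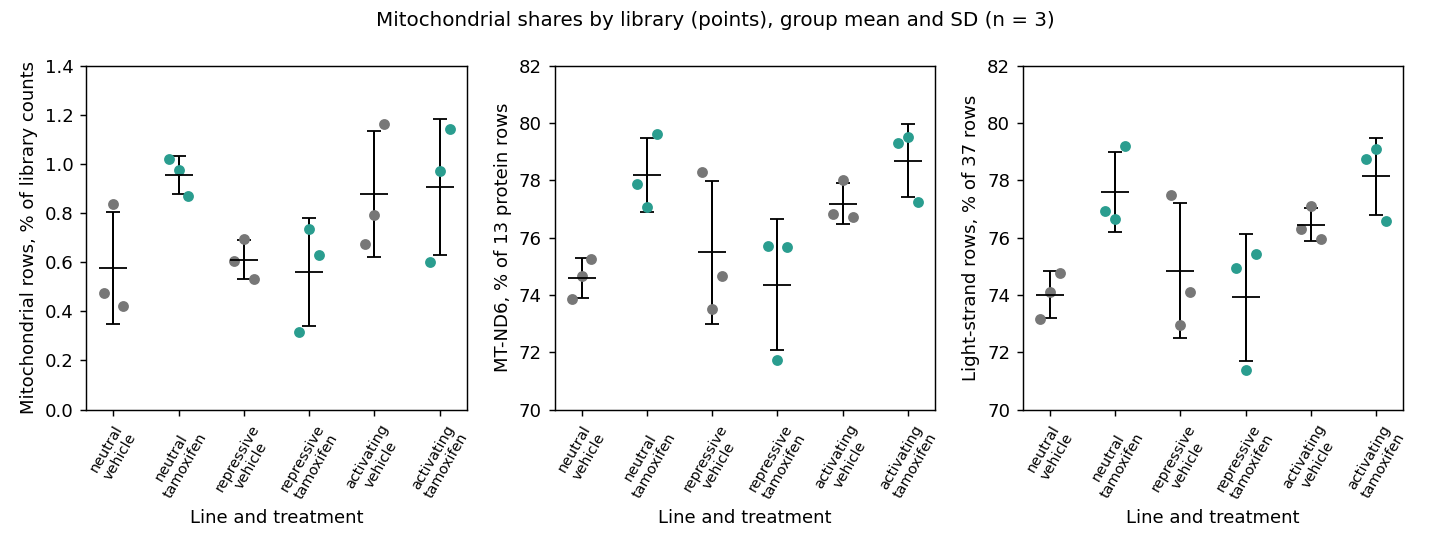
Mitochondrial percent of library counts (left), MT-ND6 percent of the 13 protein rows (middle) and light-strand percent of the 37 rows (right) in each library (points), with the mean and SD of each group of 3. The middle and right axes start at 70%. In the neutral line alone the tamoxifen points lie above all vehicle points in each panel.

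MT-ND6 held between 71.7% and 79.6% of the counts of the 13 protein rows, with a mean of 76.4% ± 2.21 (SD, n = 18). In the neutral line the share was 73.8%, 74.7% and 75.3% with vehicle and 77.9%, 77.1% and 79.6% with tamoxifen. The groups did not overlap and their means were 74.6% ± 0.709 and 78.2% ± 1.30 (SD, n = 3, exact permutation p = 0.1, the smallest possible). In the repressive line the share was 78.3%, 73.5% and 74.7% with vehicle and 75.7%, 71.7% and 75.7% with tamoxifen, and in the activating line it was 76.8%, 78.0% and 76.7% with vehicle and 79.3%, 79.5% and 77.2% with tamoxifen. The vehicle and tamoxifen ranges overlapped in both of these lines.

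Across lines, tamoxifen libraries were 1.32 percentage points higher in the MT-ND6 share (exact permutation test stratified by line, p = 0.153, n = 9 per treatment), and this rose to 1.79 points (p = 0.0315, exact permutation) without repressive vehicle replicate 1 and 1.76 points (p = 0.0398, exact permutation) without repressive tamoxifen replicate 2. The share was 3.01 points higher in the activating than in the repressive line (exact permutation p = 0.03, adjusted p = 0.262, n = 6 per line) and 1.55 points higher in the activating than in the neutral line (exact permutation p = 0.06, adjusted p = 0.262, n = 6 per line). The first of these exceeded an unadjusted p of 0.05 without repressive vehicle replicate 2 or 3 or activating vehicle replicate 2 (2.52 to 2.80 points), and the second fell below it without replicate 3 of the neutral or of the activating tamoxifen group (1.91 and 1.92 points). The share of the repressive line minus that of the neutral line was -1.46 points (exact permutation p = 0.29, n = 6 per line), and -2.16 points without repressive vehicle replicate 1 (exact permutation p = 0.02). The smallest p possible for such a comparison of all libraries of 2 lines was 0.005. None of the 21 tests of the 3 measures passed after adjustment, and 3 had an unadjusted p under 0.05.

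The light-strand share of all 37 rows followed the MT-ND6 share, which makes up most of it. Its group means were 74.0% ± 0.814 and 77.6% ± 1.39 in the neutral line (vehicle and tamoxifen), 74.8% ± 2.36 and 73.9% ± 2.21 in the repressive line, and 76.5% ± 0.587 and 78.1% ± 1.35 in the activating line (SD, n = 3). Without MT-ND6 the neutral line's difference of 3.59 points became -0.194 points (exact permutation p = 0.9, n = 3 per group), over the few counts of the light-strand tRNA rows.

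MT-ND6 was compared between treatments as a level as well. In the neutral line it had 3446, 6186 and 3126 CPM with vehicle and 7830, 7436 and 6864 CPM with tamoxifen. In the repressive line it had 4678, 5034 and 3933 CPM with vehicle and 2351, 5228 and 4726 CPM with tamoxifen, and in the activating line 5125, 6099 and 8822 CPM with vehicle and 4712, 7654 and 8705 CPM with tamoxifen. The neutral groups did not overlap, and those of the other lines did. The lowest library of all was repressive tamoxifen replicate 1 and the highest activating vehicle replicate 3, and neutral vehicle replicate 2 stood above the other vehicle libraries of its line.

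MT-ND5, the fullest heavy-strand row, had 572, 966 and 509 CPM with vehicle and 900, 1062 and 851 CPM with tamoxifen in the neutral line. The repressive line had 600, 886 and 591 CPM with vehicle and 361, 956 and 716 CPM with tamoxifen, and the activating line 690, 741 and 1220 CPM with vehicle and 517, 912 and 1109 CPM with tamoxifen. The vehicle and tamoxifen ranges of MT-ND5 overlapped in all 3 lines. MT-RNR2 had 37.5, 67.2 and 29.6 CPM with vehicle and 127, 54.6 and 44.8 CPM with tamoxifen in the neutral line. It had 63.9, 54.5 and 32.8 CPM with vehicle and 27.0, 35.5 and 23.7 CPM with tamoxifen in the repressive line, and 48.1, 85.3 and 102 CPM with vehicle and 20.5, 58.5 and 95.1 CPM with tamoxifen in the activating line. Here too the ranges overlapped in all 3 lines.

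To ask whether single rows changed with tamoxifen, the 16 mitochondrial rows that reached 10 counts in 3 or more libraries (12 heavy-strand protein rows, both rRNA rows, MT-ND6 and MT-TA) were tested in 1 DESeq2 fit with all 5816 genes that met this rule. DESeq2's independent filtering leaves rows of low count without an adjusted p, and such rows could not pass. In the neutral line 4 of the 16 rows (MT-ND6, MT-ND5, MT-ND4 and MT-CO3) kept one, and 0 of them had an adjusted p under 0.05. Of all genes 1193 kept one and 45 passed, 0.774% of those tested. At an unadjusted p under 0.05 there were 4 of 16 rows in DESeq2 (8 without neutral vehicle replicate 2, and 1 without neutral vehicle replicate 3) and 6 in edgeR. After adjustment edgeR called 1, MT-ND6 (log2 fold change 0.79, edgeR adjusted p = 0.0472). In the repressive line 14 rows kept an adjusted p and 0 passed. Of all genes 4575 kept one and 561 passed, 9.65% of those tested. At an unadjusted p under 0.05 there were 0 of 16 in DESeq2 and 0 in edgeR, and 0 passed in edgeR. In the activating line 7 rows kept an adjusted p and 0 passed. Of all genes 1644 kept one and 163 passed, 2.80% of those tested. Again 0 of 16 were at an unadjusted p under 0.05 in DESeq2 and 0 in edgeR, and 0 passed in edgeR. With independent filtering off, all 16 rows had an adjusted p in DESeq2 and 0 passed in any of these lines, with a lowest adjusted p of 0.230, 0.463 and 0.609.

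The log2 fold change of MT-ND6 in the neutral line was 0.80 ± 0.33 (SE, DESeq2 adjusted p = 0.182), a ratio of 1.74 with a 95% interval of 1.11 to 2.74. It was -0.01 ± 0.33 (DESeq2 adjusted p = 0.995) in the repressive line, with a ratio interval of 0.633 to 1.57. In the activating line it was 0.05 ± 0.33 (DESeq2 adjusted p = 0.953), with a ratio interval of 0.660 to 1.63. The intervals of the repressive and the activating line thus include changes of over 1.5-fold. Without neutral vehicle replicate 2, MT-ND6 in the neutral line had a log2 fold change of 1.15 (DESeq2 adjusted p = 0.0355) and MT-CO1 one of 1.65 (DESeq2 adjusted p = 0.0397), and both passed.

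The other rows with an unadjusted p under 0.05 in the neutral line were MT-CO1, MT-CYB and MT-ND2. MT-CO1 had 23.6, 42.9 and 17.5 CPM with vehicle and 72.6, 68.1 and 53.3 CPM with tamoxifen, without overlap, and a log2 fold change of 1.20 ± 0.41 (SE). MT-CYB had 0.91 ± 0.37 and MT-ND2 0.89 ± 0.41 on the same scale, and these were 0.55 for MT-CYB without neutral vehicle replicate 3 and 0.52 for MT-ND2 without neutral tamoxifen replicate 1. These 3 rows were among the 12 with no adjusted p in this comparison. Fold changes lay above 0 for 14 of the 16 rows in the neutral line, with a median log2 fold change of 0.74 against 0.00 over all tested genes. The corresponding numbers were 8 of 16 with a median of 0.02 (-0.02 over all genes) in the repressive line and 8 of 16 with a median of 0.01 (0.00 over all genes) in the activating line. Over left-out libraries the median of the rows ranged from 0.48 to 0.97 in the neutral, from -0.31 to 0.35 in the repressive and from -0.23 to 0.28 in the activating line.

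Normalised counts of all 3 tamoxifen libraries were above those of all 3 vehicle libraries for 4 of the 16 rows in the neutral line (MT-ND6, MT-CO1, MT-ND1 and MT-TA), compared with 6.62% of all tested genes. For MT-TA this separation did not hold in CPM. This held for 1 row, MT-ND3, in the repressive line, compared with 12.6% of all genes, and for 0 rows in the activating line, compared with 7.84%. No mitochondrial row was lower in all 3 tamoxifen libraries in any line, where the shares of all genes were 6.65%, 11.6% and 8.18% in the neutral, repressive and activating line. MT-ND6 and the sum of the heavy-strand protein rows moved together between libraries, and the rows are not independent of each other.

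**Figure D4:**
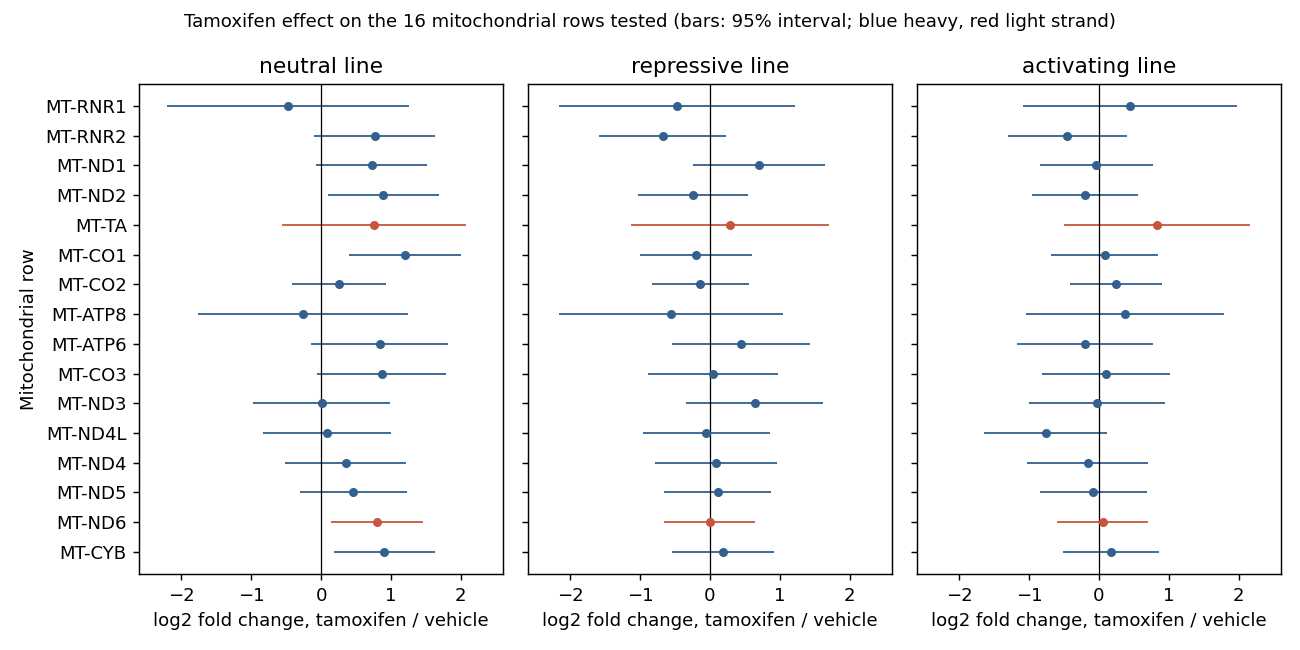
Log2 fold change of tamoxifen over vehicle for the 16 tested mitochondrial rows in the neutral, repressive and activating line, with 95% intervals from DESeq2. Blue points are heavy-strand and red points light-strand rows. In the neutral line 14 of 16 points lie above 0, and 8 of 16 do so in each of the other lines.

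The tamoxifen effects of the lines were compared by interaction terms in the same fit. For the repressive minus the neutral line, 13 rows kept an adjusted p and 0 passed in DESeq2. Of all genes 3110 kept one and 224 passed, 3.85% of those tested. At an unadjusted p under 0.05 there were 3 of 16 in DESeq2 and 4 in edgeR, and 0 passed in edgeR. For the activating minus the neutral line, 6 rows kept an adjusted p and 0 passed. Of all genes 1419 kept one and 36 passed, 0.619% of those tested. At an unadjusted p under 0.05 there were 2 of 16 in DESeq2 (MT-CO1 and MT-RNR2, both without an adjusted p). In edgeR 5 of 16 were under this p and 0 passed. For the activating minus the repressive line, 13 rows kept an adjusted p and 0 passed. Of all genes 3561 kept one and 247 passed, 4.25% of those tested. At an unadjusted p under 0.05 there were 0 of 16 in DESeq2 and 0 in edgeR, and 0 passed in edgeR. Over left-out libraries the DESeq2 counts at an unadjusted p under 0.05 ranged from 0 to 5, from 0 to 6 and from 0 to 1. The first 2 were highest without neutral vehicle replicate 2 (the first also without repressive tamoxifen replicate 2). The difference for MT-ND6 was -0.81 on the log2 scale between the repressive and the neutral line (DESeq2 adjusted p = 0.352) and -0.75 for activating minus neutral (DESeq2 adjusted p = 0.511). The former was -1.16 without neutral vehicle replicate 2 and -0.51 without repressive tamoxifen replicate 1, and the latter ranged over left-out libraries from -1.10, without neutral vehicle replicate 2, to -0.50, without activating vehicle replicate 3. In edgeR the unadjusted p of MT-ND6 was 0.00515 for the first difference and 0.00959 for the second (edgeR adjusted p = 0.114 and 0.477). Hence the effect in the neutral line was not shown to differ from that in the other lines. Both differences use the neutral libraries.

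Before induction, differences between lines were read from the vehicle libraries. For the repressive minus the neutral line, 13 rows kept an adjusted p and 0 passed in DESeq2. Of all genes 3222 kept one and 146 passed, 2.51% of those tested. At an unadjusted p under 0.05 there were 1 of 16 in DESeq2 and 1 in edgeR, and 0 passed in edgeR. For the activating minus the neutral line, 3 rows kept an adjusted p (MT-ND6, MT-ND5 and MT-ND4) and 0 passed. Of all genes 517 kept one and 47 passed, 0.808% of those tested. In DESeq2 3 of 16 rows had an unadjusted p under 0.05 (MT-CYB, MT-ND2 and MT-CO1, all without an adjusted p). This count ranged over left-out libraries from 0, without activating vehicle replicate 3, to 8, without neutral vehicle replicate 2. In edgeR 5 of 16 had an unadjusted p under 0.05 and 0 passed. For the activating minus the repressive line, 13 rows kept an adjusted p and 0 passed. Of all genes 3110 kept one and 100 passed, 1.72% of those tested. At an unadjusted p under 0.05 there were 1 of 16 in DESeq2 and 2 in edgeR, and 0 passed in edgeR. The median log2 difference of the 16 rows was 0.01, 0.48 and 0.50 in these comparisons (0.02, 0.01 and 0.00 over all genes), and the last 2 share the activating vehicle libraries. The first median ranged from -0.21 without neutral vehicle replicate 3 to 0.35 without neutral vehicle replicate 2, the second from 0.14 without activating vehicle replicate 3 to 0.88 without neutral vehicle replicate 2, and the third from 0.23 without activating vehicle replicate 3 to 0.69 without activating vehicle replicate 1.

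The 4 mitochondrial rows with a mean of at least 100 normalised counts varied more between replicates than most genes above that level. The SD of MT-ND6 within groups was 0.43 on the log2 scale, the highest among the 82 genes with a mean normalised count of at least 1000, whose median was 0.09. Among the 897 genes with a mean of at least 100 the median SD was 0.17, and MT-CO3 (0.60), MT-ND4 (0.57), MT-ND5 (0.49) and MT-ND6 (0.43) ranked 5th, 6th, 8th and 11th.

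MT-ND6 and the heavy-strand protein rows, taken as a sum, rose and fell together across libraries. The light-strand tRNA rows were not examined in this way. Between MT-ND6 and the summed 12 heavy-strand protein rows, in log2 CPM over 18 libraries, Pearson's r was 0.943 and Spearman's rho 0.944 (permutation p = 1e-05 for each, the smallest that 100000 resamples can give, adjusted p = 8e-05 over 8 relations). With the 2 libraries farthest from the median left out r was 0.892. For deviations from the group means, permuted within groups, r was 0.969 and rho 0.946 (exact permutation p = 6.4e-05 and 0.000107, adjusted p = 0.000257 and 0.000429), so the relation held within groups. MT-ND6 and MT-RNR2 were related less tightly, with an r of 0.742 and a rho of 0.765 (permutation p = 0.00054 and 0.00028, adjusted p = 0.00144 and 0.000747). This r was 0.774 without the 2 farthest libraries, and the deviations from group means had an r of 0.695 and a rho of 0.740 (exact permutation p = 0.00112 and 0.00105). Rows of a pair share the total of their library as denominator.

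**Figure D5:**
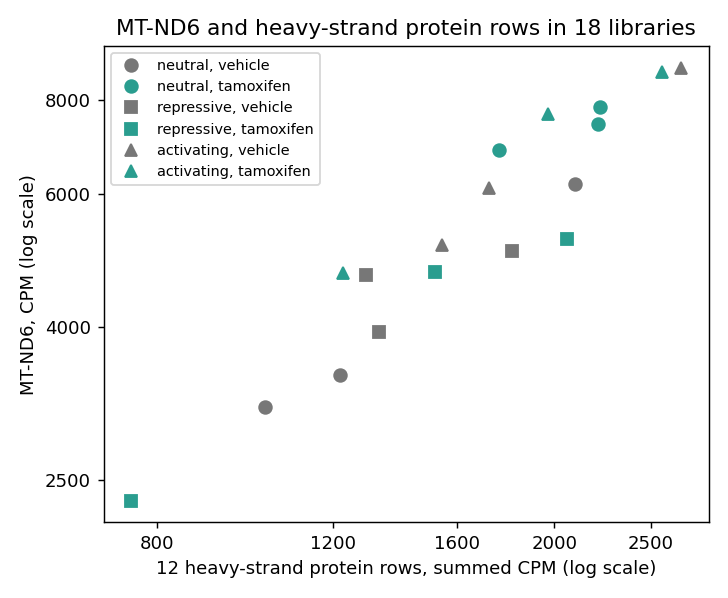
MT-ND6 level against the summed level of the 12 heavy-strand protein rows in 18 libraries, both in CPM on log axes. Shapes give the line and colours the treatment. The points rise together, from repressive tamoxifen replicate 1 with 2351 CPM of MT-ND6 to activating vehicle replicate 3 with 8822 CPM.

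No relation of the mitochondrial percent to the depth of a library was detected. With total counts r was 0.003 and rho 0.02 (permutation p = 0.99 and 0.929, n = 18), and r was -0.07 without the 2 farthest libraries. With the number of genes at 10 or more counts r was 0.269 and rho 0.292 (permutation p = 0.278 and 0.237, n = 18), and r was 0.266 without the 2 farthest libraries. For deviations from group means the latter r was -0.08, and 0.706 without the 2 farthest libraries, so it rested on those libraries.

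Nuclear genes that work with the mitochondrial genome were examined beside it. Among 78 nuclear subunits of oxidative phosphorylation, 35 could be tested. In DESeq2 0 of the 35 passed in the neutral line, 1 in the repressive and 1 in the activating line, where 0.774%, 9.65% and 2.80% of all tested genes passed. NDUFB7 fell in the repressive line at a mean of 10.6 normalised counts, and NDUFB9, a complex I subunit, fell in the activating line by 0.73 ± 0.23 on the log2 scale (SE, DESeq2 adjusted p = 0.0211). Median log2 fold changes of the 35 were 0.07, -0.13 and 0.05 in the neutral, repressive and activating line.

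Of 42 genes of mitochondrial RNA metabolism 11 could be tested, and 1 passed in a tamoxifen comparison within a line, in the repressive line, where 9.65% of all tested genes passed. This was PTCD1, a pentatricopeptide repeat protein of mitochondria, which went from 552 ± 42.8 to 388 ± 21.1 normalised counts (SD, n = 3, log2 fold change -0.51 ± 0.11, DESeq2 adjusted p = 4.32e-05). Of 79 mitochondrial ribosomal protein genes 23 could be tested, and 2 passed within a line, both in the repressive line and both lower, a share close to that of all genes. MRPS18C fell by 0.56 ± 0.17 on the log2 scale (SE, DESeq2 adjusted p = 0.0139), and MRPS16 had a mean of 11.3 normalised counts. In the interaction of the repressive minus the neutral line MRPL34 passed (DESeq2 adjusted p = 0.0478), at a mean of 40.0 normalised counts, where 3.85% of all genes did. The limit on strand applies to these nuclear rows too.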

How the data were processed

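The deposited table holds expected counts, which the authors made with the nf-core/rnaseq workflow (GRCh37) and Salmon 1.9.0 from stranded mRNA libraries. These estimated counts are summed per gene and not scaled for depth or length. The sources also name DESeq2 1.28.0. The strand setting is not given in the sources used here. Of all values 1.10% were not whole, and counts were rounded for testing. Total counts per library had a median of 755562.

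Genes that reached 10 counts in 3 or more libraries entered 1 DESeq2 1.42.0 fit (R 4.3.3) of 6 group means, with size factors by median of ratios, the Wald test, independent filtering and Benjamini-Hochberg adjustment over all tested genes. edgeR 4.0.16 (quasi-likelihood, TMM) was an alternative. CPM are counts divided by the library total. Shares of counts were compared by two-sided exact permutation tests of the difference of means, within strata where stated (Python 3.11.15, scipy 1.17.1). Wilson intervals are at 95%. P-values measure the spread between libraries that the labels call biological replicates. Replicate numbers were checked as pairs. Of 9 correlations of deviations between libraries with the same number 2 were over 0.1, both in the activating line. The numbers were not used as pairs except in the replicate block. The DESeq2 and edgeR fits and the tamoxifen permutation test stratified by line were run on simulated data. The simulated counts had the same spread setting for all genes, which was not set to that of the mitochondrial rows. The other permutation tests were not run on simulated data.

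Gene positions came from GENCODE mapped to GRCh37, and nuclear copies were aligned with blastn 2.17.0. All 37 rows are accounted for. Values in every library are given for MT-ND6 and for the row with the most counts in each strand and class, and fold changes for rows that passed. MT-CO1, MT-CYB and MT-ND2 are given because they are the other rows with an unadjusted p under 0.05. Genes of the nuclear lists are named where they passed, with fold changes only for a mean of at least 50 normalised counts. Members, lists and tests were chosen with earlier results of these data known. The alternatives were edgeR, total-count scaling, size factors without the mitochondrial rows, no filter on low counts, no independent filtering, a replicate block, other denominators, per-length counts and leaving out each library.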

Additional observations from a re-analysis of the deposited data

How the results depend on the processing

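DESeq2 called 0 mitochondrial rows in each of the 9 comparisons. Over all alternatives, the neutral line's tamoxifen effect was the one comparison in which this changed: edgeR called 1 row and leaving out single libraries gave 0 to 2, the 2 being without neutral vehicle replicate 2. With the replicate block the number was 0 in all 9. The cause of these changes was not tested. The pooled tamoxifen difference ranged over left-out libraries from 0.0789 to 0.169 percentage points for the mitochondrial percent, from 0.991 to 1.79 for the MT-ND6 share and from 1.13 to 1.89 for the light-strand share. The last 2 had an unadjusted exact permutation p under 0.05 without repressive vehicle replicate 1 or repressive tamoxifen replicate 2. The replicate block, as a sign-flip over same-numbered libraries, gave the same differences, 0.118, 1.32 and 1.45 points (exact permutation p = 0.219, 0.137 and 0.0977), and each of the 3 had an exact p above 0.05 in both tests. In a count of best matches 3 of 9 libraries correlated best with their own number. All 3 were in the activating line (r = 0.116, 0.138 and 0.048), so pairing is not excluded there.

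Differences near 0 changed sign with single libraries. For MT-ND6 the log2 fold change ranged from -0.22 to 0.29 in the repressive and from -0.12 to 0.30 in the activating line. In the repressive line the tamoxifen difference ranged from -0.139 to 0.0715 points for the mitochondrial percent, from -2.12 to 0.268 for the MT-ND6 share and from -1.88 to 0.390 for the light-strand share. In the activating line the mitochondrial percent ranged from -0.0901 to 0.181 points. Without MT-ND6 the light-strand share changed sign in the neutral line's tamoxifen difference (-0.194 points), in the activating minus the neutral line (-0.176) and in the activating minus the repressive line (-0.0184). For the activating minus the repressive line, the mitochondrial percent was 0.301 (exact permutation p = 0.055) with the gene of most counts left out of the total, and per length the MT-ND6 share was 1.59 (p = 0.05, exact permutation) and the light-strand share 1.47 (p = 0.07, exact permutation). Of the 167 results under alternatives other than leaving out a library, 159 kept their direction and side of the threshold, 3 changed sign, 3 lost and 1 gained an unadjusted or adjusted p under 0.05, and 1 count changed. Of the 540 with a library left out, 496 were kept, 16 changed sign, 15 lost and 12 gained such a p, and 1 count changed. These tallies overstate stability. Share tests within a line, with 3 or fewer libraries per group, could not reach a p under 0.05. For the DESeq2 results each of the 18 libraries was left out, including those outside the groups compared. Depth limits the lowest tested rows most, since MT-TA had at most 17 and MT-RNR1 at most 19 counts in a library.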
